A study of Homo sapiens with 30 samples.

Results

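The cultures described here were exposed to nanobelts of titanium dioxide (TiO2-NB) at 100 µg/ml, and the 3 taken after 24 h were compared with the 3 taken after 1 h. They are 6 of the 30 arrays of the study and were chosen by particle, dose and time alone, with every one of the 22215 probe sets tested out of 22277 on the array (62 are technical controls). Each culture was a mixture of 75% Caco-2 and 25% HT29-MTX cells kept for 14 days on porous Transwell supports. Caco-2 is a human colorectal adenocarcinoma line that forms a polarised layer with a brush border, and HT29-MTX is a mucus-making line selected from a human colon adenocarcinoma with methotrexate. The particles lay in the upper, apical compartment over fresh medium in the lower one. Controls at 1 h and 24 h were given fresh medium alone in both compartments (0 µg/ml), and further groups of 3 received TiO2-NB at 10 µg/ml or multi-walled carbon nanotubes (MWCNT) at 10 or 100 µg/ml for the same times. The labels call the 3 arrays of a group biological replicates, but flasks of more than one passage were pooled before seeding and the labels do not tie an array to a passage, so p-values may measure only the spread between wells. Both lines are carcinoma lines and were lysed together, so fewer cells of one line and less RNA per cell cannot be told apart. In all groups, particle-exposed or not, the 24 h cultures had also spent longer in the same medium, and time in medium and time with particles cannot be told apart within a group. The control's own change over the same time is therefore printed beside the leading results.

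A differentiated intestinal layer meets particles at its brush border, beneath a coat of mucus. Fresh medium and physical contact both start a fast programme in such cells: kinases of the ERK and NF-kB pathways switch on immediate early transcription factors, chemokines and their own inhibitors within minutes, and the transcripts decay within hours. Slower programmes follow, among them those of the hypoxia-inducible factors (HIF), which answer to low oxygen at the cell surface, the heat shock factors, which answer to misfolded protein, and the cell cycle. Comparing 24 h with 1 h sets the late state of the culture against its early one.

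Values are log2 levels, so a difference of 1 is 2-fold. ± is limma's standard error of a difference with n = 3 arrays per group. A gene rose or fell where its adjusted p over all 22215 probe sets was under 0.05. Where several probe sets name a gene, the one with the highest mean over the 30 arrays stands for it, which gave 11963 genes. Genes of the text were also fitted as the mean over their probe sets and with each array left out (6 for a change with nanobelts, 12 for a difference from the control), and the outcome is given where it ends a call or turns a sign, or where the mean is far smaller.

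The array medians lay between 6.45 and 6.49, and arrays of the same group correlated at 0.997 or more. Markers of colon epithelium (EPCAM, keratins, villin and others, 11 of 12 measured) had array medians of 12.30 to 12.36 at 1 h and 12.14 to 12.21 at 24 h, with a list median above 97.6% of all genes. The 3 arrays at 24 h did not agree equally well. Among the 159 probe sets that fell at least 2-fold, replicate 3 was the lowest of the 3 in 126 (79.2%, against 29.4% over all probe sets), and their median standard deviation at 24 h was 0.40, against 0.11 at 1 h and 0.066 in the 24 h control. The 49 probe sets that rose at least 2-fold had no such spread (median standard deviation 0.064, replicate 3 lowest in 14.3%). The largest falls are therefore given with and without replicate 3. The probe set for 28S ribosomal RNA read 10.51, 11.05 and 10.56 at 1 h and 10.22, 10.26 and 10.08 at 24 h (difference -0.52, exact two-sided permutation p = 0.1, the smallest that 3 against 3 allow), and 18S differed by -0.34 (exact p = 0.5). The 5′ minus 3′ level of GAPDH differed by 0.0037 (exact p = 0.9) and that of ACTB by -0.035 (exact p = 0.4). With 18S as a covariate 5996 probe sets changed between 1 and 24 h of nanobelts, against 6003 without it. The part of 28S and of the 5′ to 3′ levels was not tested.

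Between 1 and 24 h of TiO2-NB at 100 µg/ml, 6003 probe sets changed (27% of those tested), 3069 up (13.8%) and 2934 down (13.2%). Of the genes, 2015 rose (16.8%) and 1601 fell (13.4%). Together these are 3616 genes (30.2%). The 3 arrays at 24 h did not overlap the 3 at 1 h in 5208 of all 11963 genes (43.5%), and in 3525 of those called. Most changes were small: 49 probe sets rose (0.221%) and 159 fell (0.716%) by 2-fold or more, which makes 35 genes up (0.293%) and 50 down (0.418%). In the control, 1051 genes rose (8.79%) and 1474 fell (12.3%) over the same hours. Across genes, the change with nanobelts and the change in the control, which share no array, had a correlation of 0.65, given as a description since genes are not independent replicates.

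The transcript with the largest rise was HILPDA, a HIF-induced protein of lipid droplets that restrains fat breakdown. It read 8.68, 8.71 and 8.47 at 1 h and 10.93, 11.09 and 11.22 at 24 h, a rise of 2.46 ± 0.099 or 5.51-fold (adjusted p = 5.82e-15). The control rose almost as far, by 2.07, from 8.59, 8.91 and 8.62 to 10.87, 10.69 and 10.77, and the difference between both changes did not pass the test (0.39 ± 0.14, adjusted p = 0.106). TMCC1, a membrane protein of the endoplasmic reticulum, rose by 2.09 with nanobelts and by 2.06 in the control. RNF186, a ubiquitin ligase of colon epithelium, likewise rose by 1.89 and by 1.72. These 3 therefore moved in both kinds of culture, and no difference between the changes was detected.

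FAM13A, which carries a RhoGAP domain, moved much further with nanobelts. Its level was 9.82, 9.68 and 9.85 at 1 h and 12.08, 12.13 and 12.12 at 24 h, a rise of 2.32 ± 0.089 or 5.01-fold (adjusted p = 4.38e-15). The control rose by 0.90, from a mean of 11.12 to 12.05, 12.03 and 11.99. Both kinds of culture thus lay together at 24 h, and the nanobelt arrays lay below every control array at 1 h. PPARG, the nuclear receptor for fatty acids that is abundant in colon epithelium, followed the same course: 8.59, 8.70 and 8.73 at 1 h, 10.31, 10.37 and 10.35 at 24 h, a rise of 1.67 ± 0.064 or 3.18-fold against 0.59 in the control. KANK1, an adaptor of cortical actin and adhesions, rose by 1.55 ± 0.065 (control 0.53), and KHDC4, an RNA-binding protein, by 1.50 ± 0.081 (control 0.63).

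**Figure D1:**
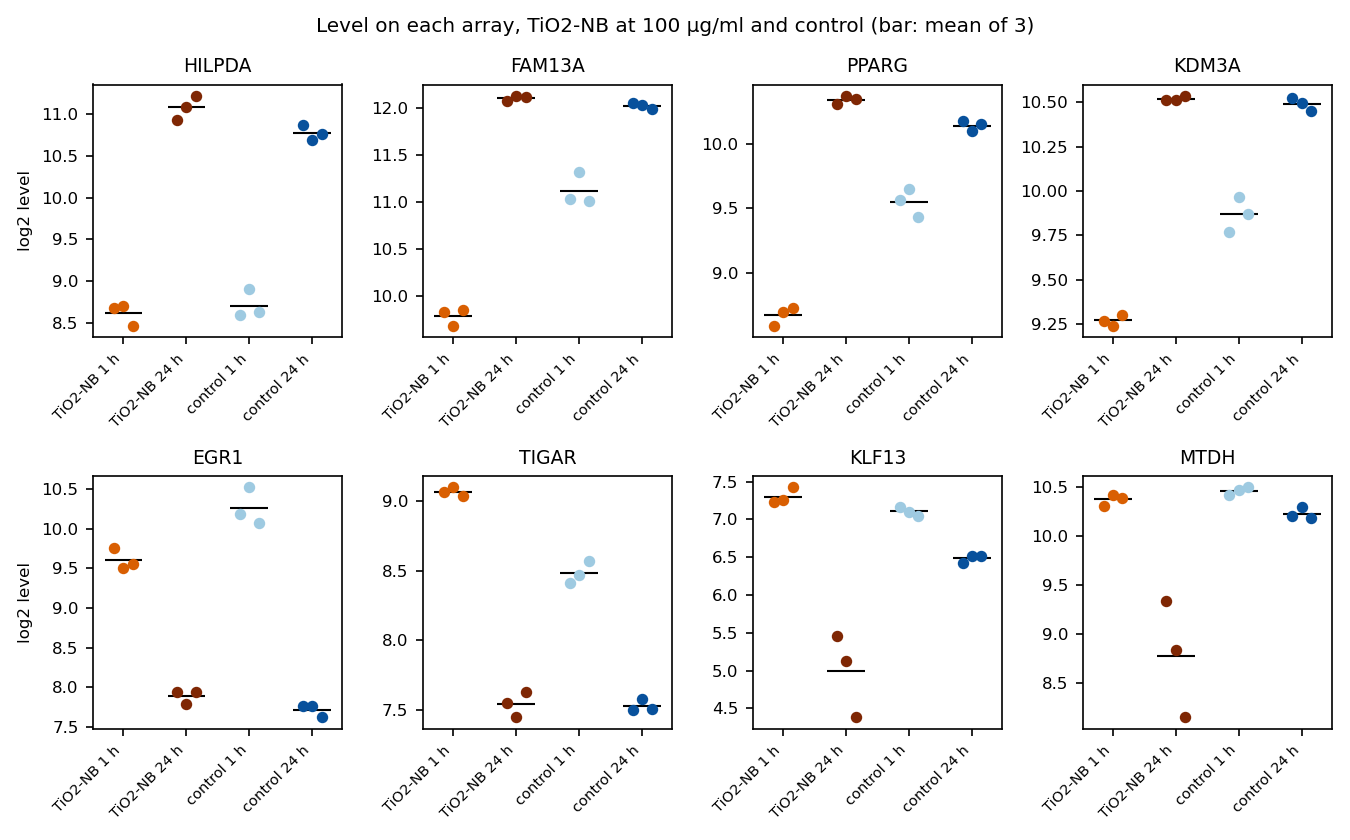
Log2 level of 8 genes on each of the 3 arrays of 4 groups, TiO2-NB at 100 µg/ml (orange, brown) and control (light and dark blue) at 1 h and 24 h, with a bar at each mean. TIGAR ends at the same level in both kinds of culture, HILPDA ends slightly higher with nanobelts, FAM13A, PPARG and KDM3A start lower with nanobelts, and the 24 h nanobelt arrays of KLF13 (5.46, 5.12 and 4.38) and MTDH (9.34, 8.84 and 8.16) are spread out below all others.

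Other large rises were those of FAM200C (2.19 ± 0.11, control 1.41), the secreted glycoprotein STC2 (1.42 ± 0.10, control 0.89), the ephrin ligand EFNA1 (1.39 ± 0.052, control 1.08), the adaptor SLA (1.35 ± 0.079, control 0.56), and RSRP1, an arginine and serine rich protein (1.34 ± 0.10, control 0.95). The retinoic acid receptor RARB rose by 1.34 ± 0.092 on its brightest probe set (control 0.48), but only 2 of its 5 probe sets rose, the other riser by 0.24. Averaged over its probe sets RARB rose by 0.35 and RSRP1 by 0.80. Every one of the 15 largest rises kept its call in all alternatives tried.

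Hypoxia and glycolysis genes rose in part. Of 34 measured, 17 rose and 0 fell, with a median of 0.16, against 16.8% of all genes up and a median of 0.013. In the control 6 rose and 1 fell. KDM3A, a histone H3K9 demethylase and HIF target, read 9.27, 9.24 and 9.30 at 1 h and 10.51, 10.51 and 10.53 at 24 h, a rise of 1.25 ± 0.050 against 0.62 in the control. MXI1, which opposes MYC, rose by 1.19 ± 0.084 (control 0.46), PFKFB3, which makes the activator of phosphofructokinase, by 0.88 ± 0.054 (control 0.63), and the vasodilator peptide ADM by 0.79 ± 0.071 (control 0.89). The glucose carrier SLC2A3 rose by 0.80, hexokinase HK2 by 0.62, and the HIF prolyl hydroxylases EGLN3 and EGLN1 by 0.71 and 0.54.

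The list did not move as a block. Glycolytic enzymes that every cell uses stayed near 0: GAPDH differed by 0.00, TPI1 by 0.01, PGK1 and LDHA by 0.02, ENO1 by 0.07 and PKM by 0.09, and none passed the test. VEGFA, the vessel growth factor, differed by 0.12, and HIF1A itself by -0.08, also without passing. In 6 members (MXI1, EGLN3, KDM3A, EGLN1, ENO2 and SLC2A3) the rise exceeded the control's by 0.51 to 0.73 with a call for the difference, and 0 fell short of it. Without 24 h replicate 3, the list counts were 12 up in the nanobelt cultures and 4 above the control, and EGLN3 and ENO2 were the ones no longer above it. ENO2 kept that call with 4 of 12 arrays left out in turn and EGLN3 with 10. Over all genes, 4.41% lay above the control's change by the test of the difference and 2.09% below it. The time change of 0 of the 34 differed from that with TiO2-NB at 10 µg/ml or MWCNT at 100 µg/ml.

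Mitotic genes rose more often than any other list with over 20 measured members. Of 43, 31 rose and 0 fell (72.1% against 16.8% of all genes), with a median of 0.30, while the control had 8 up and a median of 0.12. The changes were small. KIF20A, a kinesin of cytokinesis, read 7.55, 7.56 and 7.72 at 1 h and 8.34, 8.16 and 8.21 at 24 h, a rise of 0.63 ± 0.064 (control 0.20). HMMR, which acts at the spindle, read 8.81, 8.78 and 8.86 and then 9.43, 9.42 and 9.46, a rise of 0.62 ± 0.062 (control 0.14, not called). In both, each 24 h array lay above each 1 h array. CKS2, a partner of CDK1, rose by 0.54 ± 0.065, topoisomerase TOP2A by 0.54, the checkpoint kinase BUB1 by 0.52, CDK1 by 0.40, Aurora kinase AURKA by 0.36 and FOXM1, the activator of this gene group, by 0.36. MKI67 (0.22), CCNB1 (0.15) and PLK1 (0.06) did not pass. Averaged over its probe sets TOP2A had the opposite sign without passing (-0.27; difference from the control -0.56, called), and BUB1 rose by 0.14.

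For 8 of the 43 (HMMR, BUB1, DLGAP5, KIF20A, KIF15, CKS2, AURKA and AURKB) the rise exceeded that of the control, by 0.27 to 0.48. The change was numerically higher than the control's in 41 of 43, against 6540 of all 11963 genes. Of all genes, 4.41% lay above the control's change by the test of the difference. The time change of 0 of the 43 differed from that with the lower dose of nanobelts or with the same dose of MWCNT. Without 24 h replicate 3, 33 rose and 6 exceeded the control. With 1 of 12 arrays left out in turn the difference kept its call 3 times for KIF15, 5 for AURKB and 7 for BUB1 and DLGAP5, and averaged over probe sets it was lost for BUB1 (0.072) and AURKA (0.16). Of 44 DNA replication genes 6 rose and 3 fell (13.6% and 6.82%, against 16.8% and 13.4% of all genes), among the risers the primase subunit PRIM2 (0.59 ± 0.096) and RFC1 (0.34 ± 0.045).

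Promoters of mitotic genes are known for CCAAT boxes, bound by NF-Y, and for the cell cycle homology element TTTGAA, read by the MuvB complex. For that reason 3 list members are shown. In the 250 bases before the start of 35 list members with an entry (RefSeq, GRCh38.p14, both strands), CCAAT was found in 29 (82.9%, against 33.0% of 27305 promoters) and TTTGAA in 19 (54.3%, against 13.6%). Of these 35, 25 rose, and 21 of the 25 held CCAAT and 14 TTTGAA. The list holds genes known as mitotic, so the shares describe the list and not these cultures. The last 150 bases before the start follow for 3 of the members with the smallest p, 5′ to 3′, with these motifs (or ATTGG and TTCAAA, their other strand) in capitals; they lie at chr5:138178962-138179111, chr5:163460482-163460631 and chr9:89311045-89311194, all on the plus strand.
KIF20A: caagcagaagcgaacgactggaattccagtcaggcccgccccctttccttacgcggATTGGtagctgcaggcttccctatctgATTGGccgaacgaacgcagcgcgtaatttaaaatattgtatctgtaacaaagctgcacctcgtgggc
HMMR: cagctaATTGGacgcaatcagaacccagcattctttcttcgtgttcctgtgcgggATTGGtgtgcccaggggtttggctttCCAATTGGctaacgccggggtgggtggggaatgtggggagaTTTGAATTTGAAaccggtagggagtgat
CKS2: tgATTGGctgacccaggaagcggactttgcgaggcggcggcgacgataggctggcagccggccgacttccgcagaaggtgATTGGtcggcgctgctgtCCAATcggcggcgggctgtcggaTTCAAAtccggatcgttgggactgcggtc
KIF20A has 2 matches, HMMR 6 (a pair of them overlapping as CCAATTGG) and CKS2 4. A match in letters is no evidence of binding in these cells.

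**Figure D2:**
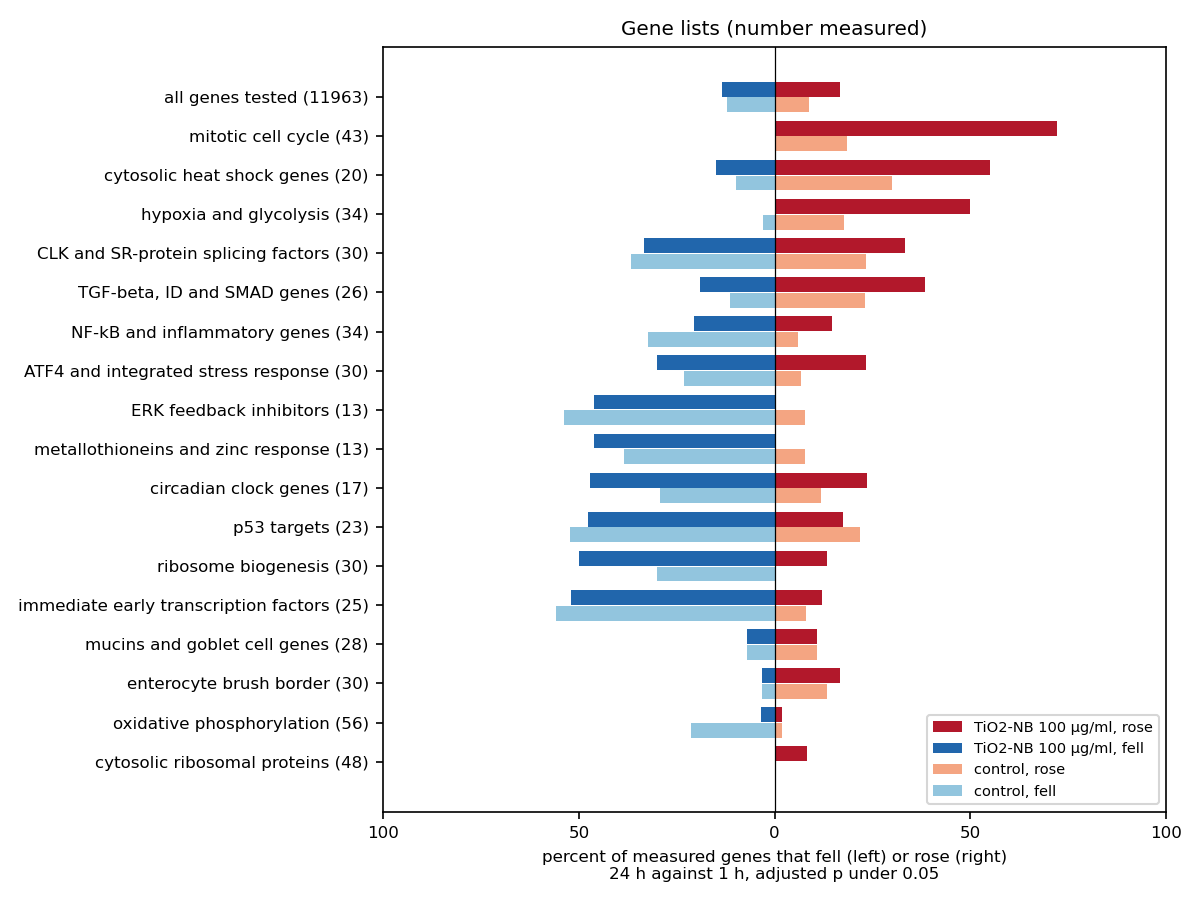
Percent of the measured genes of 17 lists, and of all 11963 genes, that fell (left) or rose (right) between 1 h and 24 h, with TiO2-NB at 100 µg/ml (dark) and in the control (light). Mitotic genes rose in 72.1% with nanobelts and 18.6% in the control, while immediate early genes fell in 52% and 56%.

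Immediate early transcription factors were lower at 24 h in both kinds of culture. Of 25 measured, 13 fell and 3 rose (median -0.23, against 13.4% of all genes down), and in the control 14 fell and 2 rose (median -0.34). EGR1, the zinc finger factor switched on by ERK, read 9.76, 9.51 and 9.56 at 1 h and 7.94, 7.79 and 7.95 at 24 h, a fall of -1.71 ± 0.12. The control fell further, by -2.55, from 10.19, 10.52 and 10.08 to 7.76, 7.76 and 7.63, and the changes differed (0.83 ± 0.16, adjusted p = 0.00271). The groups stood further apart at 1 h than at 24 h. KLF6 fell by -1.43, ATF3 by -1.14 ± 0.14 (control -1.56), MYC by -0.85 ± 0.060 (control -0.59) and JUN by -0.31 (control -0.77). The difference for JUN (0.46) passed with all arrays but in 5 of 12 fits with an array left out. KLF6 fell by -1.10 without replicate 3. The 3 that rose were FOSL2 by 0.66, IER5 by 0.42 ± 0.042 and FOS by 0.30, FOS with a call in 2 of 6 fits with an array left out. Averaged over its probe sets FOSL2 rose by 0.26.

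The list of ERK feedback inhibitors also holds phosphatases of p38 and JNK. Of its 13 measured members, 6 fell, 0 rose and 7 did not pass (46.2% down, against 13.4% of all genes). In the control 7 fell and 1 rose. The phosphatase DUSP10 fell 1.996-fold (control -1.23 on the log2 scale). The phosphatases DUSP4 (-0.71 ± 0.094) and DUSP2 (-0.47 ± 0.088) and SPRY4, an inhibitor of receptor signalling (-0.53 ± 0.079), fell too. DUSP1, which removes phosphate from p38 and JNK, differed by -0.22 without passing, while in the control it fell by -0.73. That difference (0.51) passed with all arrays, in 5 of 12 fits with an array left out, and not over its probe sets (0.38, adjusted p = 0.052). SPRY2 differed by 0.05 and fell by -0.34 in the control (difference 0.39, called). Of the EGF family, EGFR rose by 0.60 ± 0.070 and EGF by 0.36 ± 0.10, and the ligand EREG fell by -0.91 ± 0.11. The mean over EGFR's probe sets was -0.064, of opposite sign, and EGF kept its call in 3 of 6 fits with an array left out.

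The EGR1 promoter is shown because the gene had the largest fall of the list. Its control by serum response factor through CArG boxes is textbook knowledge. The form searched was CCATAT, any 2 bases, GG, and other forms of the box were not searched. Its last 150 bases before the start (chr5:138465329-138465478, plus strand, GRCh38.p14) hold 2 such boxes, in capitals:
EGR1: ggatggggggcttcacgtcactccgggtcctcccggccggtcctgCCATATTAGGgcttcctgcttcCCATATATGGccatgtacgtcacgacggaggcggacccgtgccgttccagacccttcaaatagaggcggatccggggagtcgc
That form was found in 2 of 19 list members with an entry (10.5%, against 0.308% of all promoters), which is no count of all CArG boxes. The share describes the list and not these cultures.

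NF-kB and inflammatory genes had 5 members up and 7 down of 34 (14.7% and 20.6%, against 16.8% and 13.4% of all genes). In the control 2 rose and 11 fell. CCL20, the chemokine by which epithelium attracts cells that carry CCR6, was the member with the largest difference between nanobelt and control cultures. With nanobelts it read 8.74, 8.77 and 8.74 at 1 h and 8.63, 8.63 and 8.70 at 24 h, and the difference did not pass (-0.10 ± 0.085, adjusted p = 0.467). In the control it fell by -1.13 ± 0.085, from 8.83, 9.17 and 8.94 to 7.93, 7.94 and 7.68. At 24 h the nanobelt arrays thus lay above all control arrays, by 0.80 ± 0.085 (adjusted p = 8.57e-07), and at 1 h the groups differed by -0.23 without passing. The difference between the changes was 1.03 ± 0.12 (adjusted p = 1.48e-05) and passed in all 22 alternatives, with adjusted p from 6.77e-07 to 0.00292.

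TNFAIP3, a ubiquitin editor that ends NF-kB signalling, rose by 0.21 ± 0.048 with nanobelts and fell by -0.46 in the control (difference 0.68, called). NFKBIA, the inhibitor that binds NF-kB outside the nucleus, fell by -0.19 (called in 4 of 6 fits with an array left out) against -0.57 in the control (difference 0.38, called). CXCL3, a neutrophil chemokine, rose by 0.39, with -0.24 in the control and a called difference of 0.63. CXCL8, another neutrophil chemokine, fell by -0.84 ± 0.15 against -1.48, and that difference did not pass (0.64 ± 0.21, adjusted p = 0.0797). IL1B rose alike in both, by 0.72 ± 0.088 and 0.69. TNFAIP8 rose by 0.38 and the NF-kB subunit RELA fell by -0.27. All 4 called differences were positive, and 4 were called without 24 h replicate 3. With all arrays, 4.41% of all genes had a called difference above 0 and 2.09% below it.

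The CCL20 promoter is shown since the gene fell in the control and in the cultures with less TiO2-NB or with MWCNT, and no fall passed the test here. Its last 150 bases before the start (chr2:227813692-227813841, plus strand, GRCh38.p14) hold 2 matches to a loose NF-kB consensus (GGGA, any 4 bases, CC, searched on both strands), in capitals:
CCL20: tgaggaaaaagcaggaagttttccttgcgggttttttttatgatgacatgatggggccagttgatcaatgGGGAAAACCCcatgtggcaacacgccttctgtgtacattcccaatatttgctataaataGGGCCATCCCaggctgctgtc
The same letters were found in 21 of 26 list members with an entry (80.8%, against 22.1% of all promoters). The list holds genes known as NF-kB targets, so the share describes the list and not these cultures.

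Cytosolic heat shock genes rose in 11 of 20 and fell in 3 (55% and 15%, against 16.8% and 13.4% of all genes). In the control 6 rose and 2 fell (30% and 10%, against 8.79% and 12.3%). CHORDC1, an HSP90 partner, read 8.72, 8.79 and 8.92 at 1 h and 9.96, 9.92 and 10.02 at 24 h, a rise of 1.16 ± 0.074 (control 0.66). DNAJB4 rose by 1.07, HSPH1, the exchange factor of HSP70, by 0.76 ± 0.052 (control 0.43), DNAJB6 by 0.59 ± 0.057 (control 0.21) and HSPA1L by 0.56 ± 0.069 (control 0.29). The rise exceeded the control's in CHORDC1, HSPA4L, DNAJB6, HSPH1 and DNAJA1, while 4.41% of all genes lay above the control's change. The time change differed from that with TiO2-NB at 10 µg/ml in 0 members. It was higher than that with MWCNT at 100 µg/ml in 1. Averaged over probe sets HSPH1 rose by 0.39 and DNAJA1 lost its call (0.067), and neither differed from the control with a call (0.11 and 0.084). HSPA4L and DNAJA1 kept the difference in 8 of 12 fits with an array left out, and DNAJB1 and HSPB8 kept their falls in 2 and 3 of 6. HSPA4, HSPB8 and DNAJB1 fell, by -0.22, -0.18 and -0.16, and HSP90AA1 (0.09) and BAG3 (0.12) did not pass. Chaperones of the endoplasmic reticulum and its unfolded protein response had 2 members up and 7 down of 23, near the control's 1 and 8. HSPA5, the main chaperone there, fell by -0.21 in both.

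Splicing regulators moved in both directions, 10 up and 10 down of 30 (shares to read against 16.8% and 13.4% of all genes; control 7 and 11). The kinases CLK1 to CLK4, which phosphorylate SR proteins, rose in all cases: CLK1 by 1.01 ± 0.067, CLK4 by 0.62, CLK3 by 0.44 and CLK2 by 0.33. CLK1 read 7.79, 7.76 and 7.90 at 1 h and 8.81, 8.75 and 8.92 at 24 h, with no overlap, and its rise exceeded that of the control (0.47) by 0.54. The SR proteins SRSF6 and SRSF5 fell, by -0.96 ± 0.060 and -0.74 ± 0.044, less than in the control (-1.25 and -1.21, both differences called). The difference for SRSF6 (0.29) kept its call in 3 of 12 fits with an array left out and turned to -0.15 over its probe sets, without passing. The cold-induced RNA-binding proteins CIRBP and RBM3 each fell by -0.53. The count of members above the control's change was 6 with all arrays and 2 without 24 h replicate 3. With all arrays 4.41% of all genes lay above it.

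The circadian clock list had 4 members up and 8 down of 17 (23.5% and 47.1%, against 16.8% and 13.4% of all genes; control 2 and 5). NFIL3, a repressor of D-box genes, rose by 0.87 ± 0.061, less than in the control (1.17, called). BHLHE40, a repressor of the clock and a HIF target, rose by 0.60 ± 0.11 with nanobelts and by 1.64 in the control. Its 1 h levels differed: 10.48, 10.27 and 10.05 with nanobelts, and up to 9.14 in the control. At 24 h both groups lay between 10.58 and 10.92. DBP rose by 0.53, more than in the control (difference 0.41, called), and BHLHE41 fell by -0.67 ± 0.091 and the kinase CSNK1D by -0.40. The repressors PER2, CRY1 and CRY2 fell by -0.35, -0.33 and -0.25, and BMAL1 differed by -0.13 without passing. The difference from the control kept its call in 4 of 12 fits with an array left out for NFIL3 and 7 for DBP, which lost it over its probe sets (0.22).

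Targets of ATF4 and the integrated stress response split into 7 up and 9 down of 30 (23.3% and 30%, against 16.8% and 13.4% of all genes; control 2 and 7). DDIT4, an inhibitor of mTORC1, repeated the pattern of BHLHE40: it read 10.79, 10.63 and 10.37 at 1 h and 11.12, 11.19 and 11.14 at 24 h, a rise of 0.55 ± 0.11 against 1.54 in the control, where it began at 9.35, 9.61 and 9.37. CHAC1, which degrades glutathione, fell by -0.76, CEBPG by -0.54 ± 0.051, DDIT3 by -0.55 and the amino acid carrier SLC7A5 by -0.52 ± 0.057. ALDH18A1, of proline synthesis, rose by 0.33. The amino acid synthesis genes ASNS (-0.07), PSAT1 (0.03) and PHGDH (-0.03) did not pass.

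Of 23 p53 targets, 11 fell and 4 rose (47.8% and 17.4%, against 13.4% and 16.8% of all genes), and in the control 12 fell and 5 rose. TIGAR, which lowers the activator of phosphofructokinase, read 9.07, 9.10 and 9.04 at 1 h and 7.55, 7.45 and 7.63 at 24 h, a fall of -1.53 ± 0.068. The control fell by -0.96 to the same level, 7.50, 7.58 and 7.50. AEN fell by -0.78 ± 0.074, CDKN1A, the cyclin kinase inhibitor p21, by -0.37 and GADD45A by -0.46, while CCNG2 rose by 0.87 ± 0.073 and BTG1 by 0.63 ± 0.054. PLK2 fell by -0.26 against -0.76 in the control (difference 0.50), with calls in 3 of 6 and 7 of 12 fits with an array left out.

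Ribosome biogenesis genes fell in 15 of 30 and rose in 4 (50% and 13.3%, against 13.4% and 16.8% of all genes; control 9 and 0). RRS1, an assembly factor of the large subunit, fell by -0.88 ± 0.046 (control -0.55), TSR1 by -0.59, the helicase DDX21 by -0.54 ± 0.051, UTP20 by -0.52 and WDR43 by -0.45. In RRS1, TSR1, DDX21 and UTP20 the fall exceeded that of the control, for TSR1 in 2 of 12 fits with an array left out and not over its probe sets (-0.095). By the test of the difference, 2.09% of all genes lay below the control's change. The ribosomal proteins themselves stayed near their level: 4 of 48 rose, the largest by 0.13 (RPS25), and 0 fell. With an array left out RPS25 kept its call in 5 of 6 fits, RPL11 in 3, RPL10A in 1 and RPL6 in 0. Metallothioneins, which bind zinc and copper, fell in 6 of 13 and rose in 0 (46.2% down, against 13.4% of all genes), MT1X by -0.53 ± 0.086, MT1E by -0.44 and MT2A by -0.37, and in the control by -0.50, -0.35 and -0.33. 0 members of that list passed limma's test of the difference from the control, against 6.5% of all genes.

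Genes that answer to reactive oxygen are read here against 16.8% of all genes up and 13.4% down. Of 29 NRF2 and antioxidant genes 3 rose and 5 fell (10.3% and 17.2%; control 2 and 5), and of 17 superoxide and peroxide detoxifying genes 3 rose and 1 fell (17.6% and 5.88%; control 1 and 2). SQSTM1, the autophagy receptor p62, fell by -0.44 ± 0.037 (control -0.18). Over its probe sets SQSTM1 fell by -0.23, and the difference from the control, called at -0.26 on the brightest one, was -0.089 (adjusted p = 0.498). GCLC, of glutathione synthesis, fell by -0.33 and the haem oxygenase HMOX1 by -0.28. AHR, the receptor for dioxins, fell by -0.33 ± 0.059 with 0.02 in the control, and its target CYP1A1 fell by -0.35 ± 0.11. CYP1A1 and HMOX1 each kept the call in 4 of 6 fits with an array left out. Iron handling had 3 up and 1 down of 14 (21.4% and 7.14%; control 0 and 0). The drug esterase CES2 fell by -0.67 ± 0.063 (control -0.18, difference -0.49, called). Lysosomal genes had 9 up and 3 down of 36 (25% and 8.33%; control 4 and 2), with the proton pump subunit ATP6V1C1 up by 0.51 ± 0.041 (control 0.18, difference called) and the cholesterol exporter NPC1 up by 0.30. Endocytosis genes, at 4 up and 4 down of 30 (13.3% each way; control 2 and 1), held EEA1 (0.39) and EPS15 (0.25) among the risers. Averaged over probe sets, NPC1 (0.12) and EEA1 (0.18) lost their calls. EEA1 kept its call in 5 of 6 fits with an array left out.

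Lists of the functions of an intestinal layer follow, to be read against 16.8% of all genes up and 13.4% down. The brush border list had 5 up and 1 down of 30 (16.7% and 3.33%; control 4 and 1), with the homeobox factor CDX2 up by 0.53 ± 0.057 (control 0.28), trehalase TREH by 0.37 and the scaffold PDZK1 by 0.25, and the fatty acid binder FABP2 down by -0.39. The mucus list had 3 up and 2 down of 28 (10.7% and 7.14%; control 3 and 2): the gastric mucin MUC5AC rose by 0.23, TFF2 by 0.25 and GALNT3, which starts O-glycans, by 0.29, while KLF4 fell by -0.60 and GCNT3 by -0.47. MUC5AC kept its call in 1 of 6 fits with an array left out, and over probe sets MUC5AC (0.093) and GALNT3 (0.16) lost it. MUC2, the main secreted mucin of colon, differed by -0.06. Among junction genes 2 rose and 5 fell of 23 (8.7% and 21.7%; control 4 and 3), CLDN4 by -0.33 and CLDN1 by -0.34 and, upward, OCLN by 0.24, against -0.32, -0.34 and 0.22 in the control. Oxidative phosphorylation had 1 up and 2 down of 56 (1.79% and 3.57%), and in the control 1 and 12.

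Lipid and sugar metabolism gave single genes. SREBF1, the regulator of fat synthesis, fell by -0.65 ± 0.053 (control -0.29, difference called). INSIG2, which retains the sterol sensor, rose by 0.84 ± 0.093 (control 0.28, difference called), and PLIN2, a coat of lipid droplets, by 0.24, which lost the call over its probe sets (0.072). PCK1, which commits carbon to gluconeogenesis, read 9.35, 9.18 and 9.26 at 1 h and 8.87, 8.96 and 9.01 at 24 h, a difference of -0.31 ± 0.13 that did not pass (adjusted p = 0.092). In the control it fell by -1.48, from 10.04, 10.45 and 10.18 to 8.82, 8.74 and 8.67, and the changes differed by 1.17 ± 0.19 (adjusted p = 5.38e-04). IRS1 rose by 0.58 ± 0.069. FOXO3 fell by -1.26 ± 0.16, with -0.17 in the control, and by -1.01 without replicate 3.

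Among TGF-beta, ID and SMAD genes 10 rose and 5 fell of 26 (38.5% and 19.2%, against 16.8% and 13.4% of all genes; control 6 and 3). ID1, a target of BMP signals, fell by -1.29 ± 0.089 from 11.12, 10.94 and 10.91 to 9.71, 9.70 and 9.69, and by -1.37 in the control. SMAD3 rose by 0.75 ± 0.084 (control 0.17, difference 0.57, called) and SMAD4 by 0.67 ± 0.093. The ligand BMP2 fell by -0.73 ± 0.087, from 10.25, 10.26 and 10.24 to 9.77, 9.53 and 9.24, with -0.03 in the control and a called difference of -0.71. LEF1, a WNT effector, rose by 0.62 ± 0.096 (control 0.07) and SOX9 fell by -0.36. Averaged over probe sets LEF1 lost its call (0.16, adjusted p = 0.0818), SMAD3 rose by 0.23, SMAD4 by 0.37 and BMP2 fell by -0.29. Without 24 h replicate 3 BMP2 fell by -0.60. RHOB, a fast-responding GTPase of the actin list, fell by -1.13 ± 0.12 (control -1.57). Interferon response genes had 5 up and 3 down of 33 (15.2% and 9.09%; control 3 and 4), with OAS1 up by 0.55 ± 0.077 and IFIT3 by 0.35. Of 17 BCL2 family genes 4 rose and 2 fell (23.5% and 11.8%, against 16.8% and 13.4% of all genes). In the control 2 rose and 3 fell. BCL2L1, a survival factor, fell by -0.39 ± 0.051 and the death factor PMAIP1 by -0.53 ± 0.12.

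The largest falls were of another kind than those of EGR1, ID1 and TIGAR. KLF13, a zinc finger transcription factor, read 7.23, 7.25 and 7.42 at 1 h and 5.46, 5.12 and 4.38 at 24 h, a fall of -2.31 ± 0.18 or 4.97-fold (control -0.62, difference -1.69 ± 0.25, adjusted p = 2.32e-04). NAA15, a subunit of the NatA acetyltransferase, read 6.32, 6.65 and 6.41 and then 4.99, 4.58 and 3.90 (-1.97 ± 0.25, control -0.36). MTDH, an RNA-binding membrane protein, read 10.30, 10.42 and 10.39 and then 9.34, 8.84 and 8.16 (-1.59 ± 0.15, control -0.23). In each the 24 h arrays lay below all 1 h arrays, with replicate 1 the highest and replicate 3 the lowest. Without replicate 3 the falls were -2.01, -1.68 and -1.28, still called. The 24 h readings of KLF13 and NAA15 lay below the array medians of 6.45 to 6.49. They neared the level of endothelial markers, whose medians on these arrays were 4.45 to 4.60. At such low levels the size of both falls is uncertain.

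The other named falls were PHACTR2 (-1.66 ± 0.13), ZNF12 (-1.59 ± 0.17), the chromatin cofactor ANKRD11 (-1.55 ± 0.14), MBP (-1.53 ± 0.17), the lipid phosphatase PLPP3 (-1.52 ± 0.16), the cyclophilin PPIG (-1.48 ± 0.19), PLEKHA1 (-1.47 ± 0.15), the actin nucleation factor WASL (-1.44 ± 0.22), the initiation factor EIF5 (-1.44 ± 0.16) and the bromodomain protein BRD2 (-1.44 ± 0.17). In all 10 replicate 3 was the lowest array at 24 h. Without it the 10 falls were, in the same order, -1.45, -1.31, -1.38, -1.31, -1.21, -1.08, -1.22, -1.21, -1.10 and -1.19, each still called. Control changes for these 10 ran from -0.41 to 0.13 and none passed. All 15 named falls kept their calls in every alternative.

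Several of these falls held for some probe sets of a gene and not for others. MTDH fell on 1 of its 3 probe sets, with -0.04 and 0.07 on the others, and MBP on 1 of 4. WASL fell on 1 probe set and rose by 0.21 on the other, and PLPP3 fell by -1.52 and -1.71 on 2 and rose by 0.29 on the third. PPIG and BRD2 fell on 2 of 3 and EIF5 on 3 of 5. PHACTR2 fell on all 3. Over the 50 genes that fell at least 2-fold, 26 had several probe sets: in 9 all the others fell too, in 8 some did, and in 9 none did. Among the 35 genes with a rise of that size, 13 had several, and the counts were 10, 1 and 2. Averaged over their probe sets, MTDH fell by -0.52, MBP by -0.41, WASL by -0.61 and EIF5 by -0.49, all called.

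**Figure D3:**
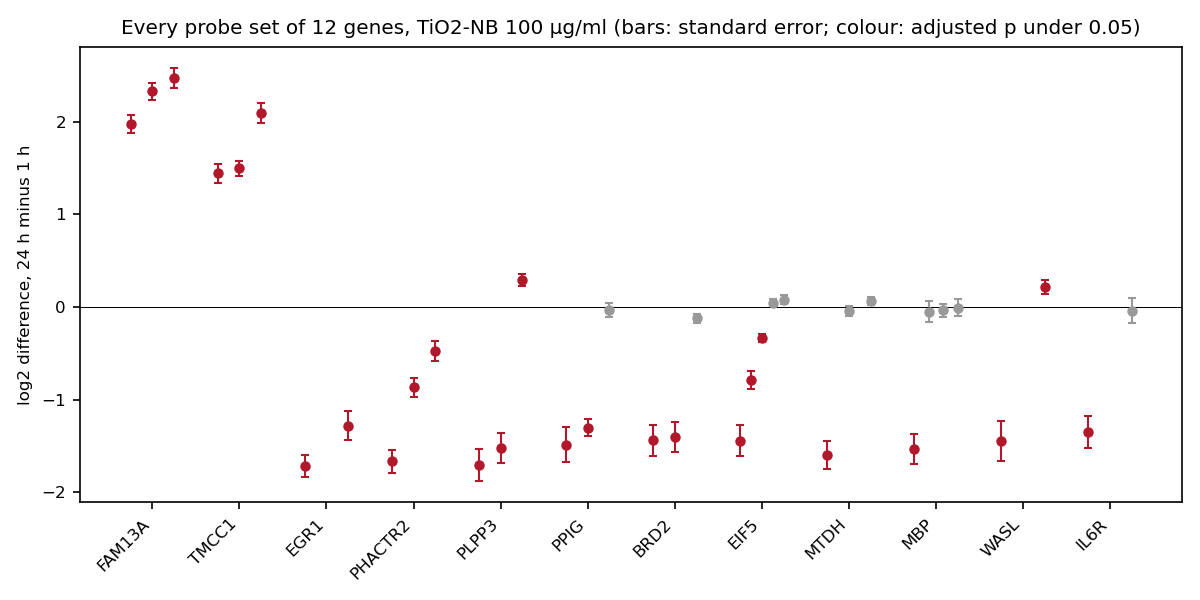
Log2 difference between 24 h and 1 h of TiO2-NB at 100 µg/ml for each probe set of 12 genes, with limma's standard error as the bar and red where the adjusted p was under 0.05. The probe sets of FAM13A, TMCC1, EGR1 and PHACTR2 moved one way, while those of MTDH, MBP, WASL and IL6R split between a fall of over 1.3 and values near 0 or above.

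The same 159 probe sets were lower at 24 h in the other groups too, but by less: the median change was -1.30 with TiO2-NB at 100 µg/ml, -0.61 at 10 µg/ml, -0.65 and -0.35 with MWCNT at 100 and 10 µg/ml, and -0.28 in the control. They were chosen for their fall in the first of these, so its median is a description. At 10 µg/ml 123 of them fell (13.7% of all probe sets fell there), and 58 fell in the control (10.9%). Leaving out replicate 3, 127 probe sets fell at least 2-fold, and leaving out replicate 1, 205. The 49 large risers had medians of 1.19, 1.16, 1.06, 1.04 and 0.63 in the same order.

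A test of the difference between the change with nanobelts and that of the control called 1298 probe sets (5.84%), and 777 genes (6.5%). The nanobelt change was higher in 527 genes (4.41%) and lower in 250 (2.09%). Where it was higher, the gap between both kinds of culture was wider at 1 h in 464 of the 527, with a median gap of -0.26 at 1 h and 0.080 at 24 h. Where it was lower, the gap was wider at 24 h in 160 of 250, with medians of 0.10 at 1 h and -0.36 at 24 h. These genes were called on a contrast made of both gaps, so the counts and medians are a description. The share of all genes with a wider gap at 1 h was not counted. FAM13A (-1.33), PPARG (-0.88) and KANK1 (-1.01) lay below the control at 1 h, and KLF13, NAA15 and MTDH lay below it at 24 h. Tested directly against control, 1257 genes differed at 1 h (10.5%) and 377 at 24 h (3.15%). Without 24 h replicate 3, 848 probe sets were called in the difference between the changes, with 346 genes higher and 186 lower. 12 genes were then lower by 2-fold or more, and 27 with all arrays.

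By size, the 8 genes with the highest difference were FAM13A (1.42 ± 0.13, adjusted p = 5.37e-07), PCK1 (1.17), PPARG (1.08 ± 0.090), CCL20 (1.03), KANK1 (1.02 ± 0.092), GRAMD2B (0.88 ± 0.10), KHDC4 (0.86) and RARB (0.86). CCL20 was the one among them whose gap to control lay at 24 h. The changes of PCK1 and CCL20 did not pass with nanobelts, and both fell in the control. The 8 lowest were KLF13 (-1.69), NAA15 (-1.61 ± 0.36), WASL (-1.57), ZNF12 (-1.47), PLEKHA1 (-1.45), PHACTR2 (-1.42), IL6R (-1.38 ± 0.25) and MTDH (-1.36). Without 24 h replicate 3 these 8 were, in the same order, -1.39, -1.31, -1.34, -1.18, -1.20, -1.21, -1.10 and -1.05, each still called. IL6R, the receptor chain for interleukin 6, read 6.77, 6.62 and 6.68 at 1 h and 6.01, 5.23 and 4.79 at 24 h, and differed by 0.03 in the control. It fell by -1.35 ± 0.18 on that probe set (-1.07 without replicate 3), and its other one differed by -0.04. The 24 h readings of IL6R also lay below the array medians of 6.45 to 6.49, so the size of its fall is uncertain. SRPK2, a kinase of SR proteins, had a difference of -1.07, which was -0.10 over its probe sets without passing, and FOXO3 of -1.10. Without replicate 3 they were -0.85 and -0.84.

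**Figure D4:**
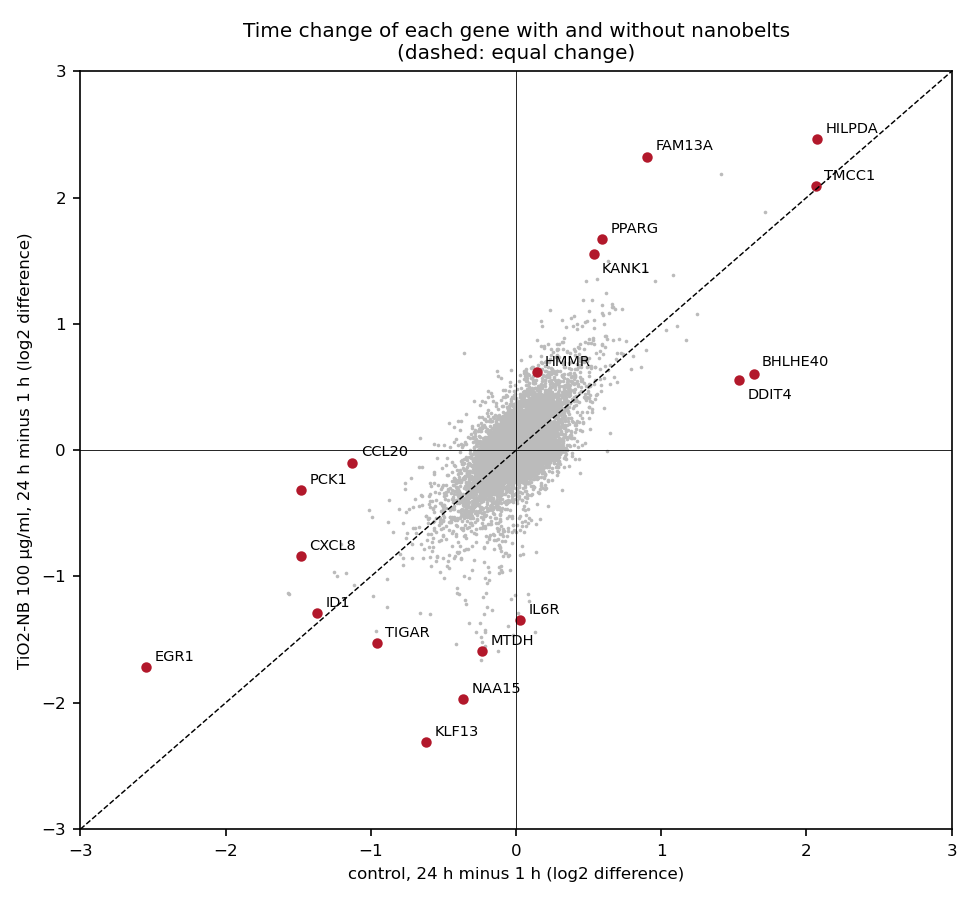
Log2 change from 1 h to 24 h of each of 11963 genes (grey) in the control (horizontal) and with TiO2-NB at 100 µg/ml (vertical), with 18 genes of the text in red and a dashed line of equal change. HILPDA and TMCC1 lie near the line, FAM13A and PPARG above it, KLF13 and IL6R below it, and CCL20 at a control change of -1.13 and a nanobelt change of -0.10.

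Against the lower dose of the same particle few differences in the time change passed the test. At 10 µg/ml 6071 probe sets changed (27.3%), and the difference between the doses was called in 59 (0.266%), 3 higher (0.0135%) and 56 lower (0.252%) at the high dose, or 24 genes (0.201%). FAM13A rose by 2.37 at 10 and 2.32 at 100 µg/ml, and KDM3A by 1.26 and 1.25. The genes higher at the high dose were CCL20 and GAL. CCL20 fell by -0.84 ± 0.085 at 10 µg/ml, a difference of 0.74 ± 0.12 (adjusted p = 0.0146), and GAL, the neuropeptide galanin, fell by -0.20 and rose by 0.23 at 100 µg/ml, a difference of 0.43 that passed in 9 of 22 alternatives. IL6R (-1.50), ZNF12 (-1.18), PLEKHA1 (-1.13), ZNF264 (-1.09) and PHACTR2 (-0.96) were lower. The count was 0 without TiO2-NB 100 µg/ml 1 h replicate 2, TiO2-NB 10 µg/ml 24 h replicate 1 or TiO2-NB 10 µg/ml 1 h replicate 3, and 368 without TiO2-NB 100 µg/ml 24 h replicate 1. The unadjusted p was under 0.05 for 1763 probe sets. CCL20 passed in 19 of 22 alternatives.

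Against MWCNT at the same dose the difference was called in 95 probe sets (0.428%), 29 higher (0.131%) and 66 lower (0.297%) with nanobelts, or 45 genes (0.376%). CCL20 again led the higher ones, with a fall of -0.84 under MWCNT and a difference of 0.75 ± 0.12 (adjusted p = 0.00654) that passed in all 22 alternatives. CLK1 followed (0.58 ± 0.094), then SPRY2 (0.56 ± 0.090), ZNF41 (0.49) and GAL (0.48). CLK1 rose by 0.43 under MWCNT and 1.01 under nanobelts, and SPRY2 fell by -0.51 under MWCNT. The lowest were IL6R (-1.44), PLEKHA1 (-1.21), PLPP3 (-1.16), PHACTR2 (-1.14) and MTDH (-1.04). The count ran from 9 without MWCNT 1 h replicate 3 to 352 without TiO2-NB 24 h replicate 1. Of the 10 genes, CCL20 alone kept its call in all 22 alternatives.

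**Figure D5:**
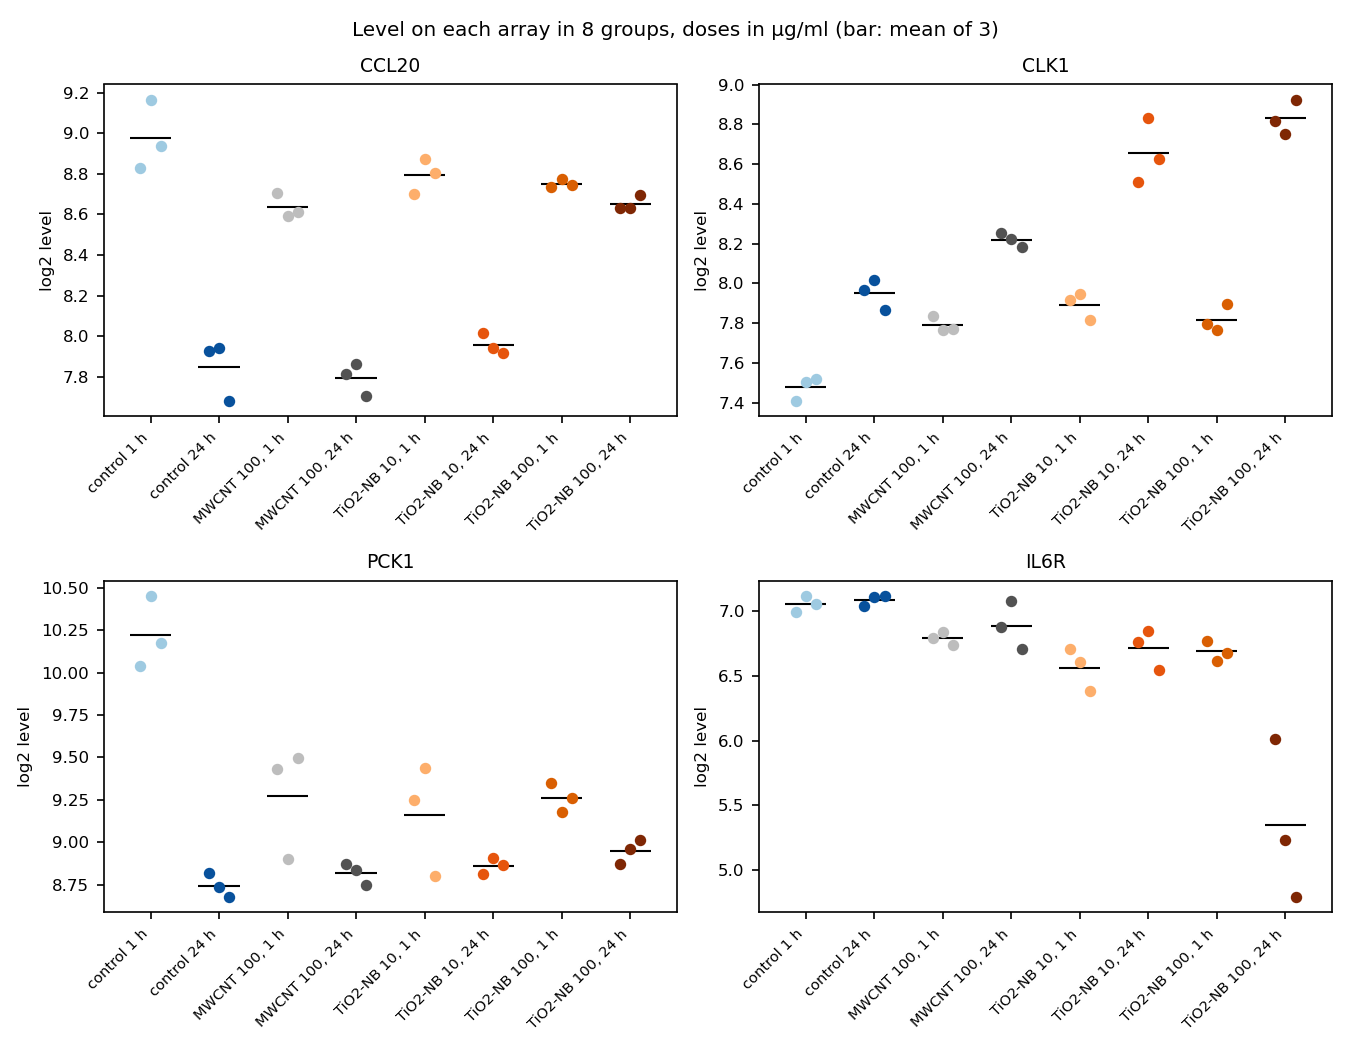
Log2 level of CCL20, CLK1, PCK1 and IL6R on each of the 3 arrays of 8 groups, with a bar at each mean. For CCL20, the 24 h arrays with TiO2-NB at 100 µg/ml (8.63, 8.63 and 8.70) lie above those of the other 3 kinds of culture at 24 h, and for IL6R the 24 h arrays at that dose are the lowest and the most spread.

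Markers of other cell types are given last, with summed levels as log2 of the summed linear levels. Their counts are to be read against 16.8% of all genes up and 13.4% down (control 8.79% and 12.3%). Of 21 leukocyte markers 0 rose and 1 fell, with a summed level of 11.84 to 12.06 at 1 h and 11.96 to 12.08 at 24 h (control 11.69 to 11.76 and 11.95 to 12.01, with 3 of 21 up). Of 15 fibroblast markers 1 rose, PDGFRA by 0.55 ± 0.13 (sums 9.85 to 9.90 and 9.91 to 10.02), and of 10 endothelial (8.60 to 8.79 and 8.65 to 8.69) and 14 enteroendocrine and Paneth markers (11.33 to 11.54 and 11.49 to 11.58) 0 passed in either direction. No value is 0 on this scale. The list medians lay at the 12.9th to 26.6th percentile of all genes. The highest leukocyte member read 11.31, the same level as the highest enteroendocrine and Paneth member. Lists can share a gene, so these sums may not be separate. The part of these markers in the results was not tested. Of the colon epithelial markers 2 rose (CDX2 and KRT19, by 0.53 and 0.10) and 2 fell (ELF3 and KRT8, by -0.60 and -0.15). That is 18.2% of 11 each way, near the shares of all genes, and the control also had 2 and 2. Averaged over probe sets ELF3 fell by -0.14 and PDGFRA rose by 0.18, and KRT19 kept its call in 1 of 6 fits with an array left out.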

How the data were processed

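RNA of 30 co-cultures was hybridised to Affymetrix arrays, with 3 µg of total RNA per array. The authors deposited log2 levels per probe set, summarised with RMA, per the submitters' processing notes; its version and chip definition: not given in the sources used here. RMA fits all arrays to one distribution, so changes are relative to the other transcripts. Values were used as deposited. Of the probe sets, 19064 carry 1 gene symbol, 1043 several and 2108 none in the platform annotation; 19052 matched RefSeq by gene identifier.

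A mean per group was fitted over 30 arrays with limma 3.58.1 (lmFit, eBayes; R 4.3.3; 20 residual degrees of freedom), two-sided; the Benjamini-Hochberg method adjusted p-values across every probe set tested, and 0.05 was the threshold. Contrasts were 24 h minus 1 h for TiO2-NB at 100 µg/ml and control, and its difference from control, TiO2-NB at 10 µg/ml and MWCNT at 100 µg/ml. Scripts were tested on simulated data.

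The cultures and the 42 lists (995 of 1169 members measured) were chosen with earlier results of these data known. Named were the 15 largest called rises and falls without overlap of arrays, the 8 highest and lowest differences from control, 5 and 5 for the other differences, and in each list the 4 smallest p and 2 smallest p for the difference. Other genes in the text were chosen after their values were seen. Alternatives were the compared groups alone, a block for the replicate number, leaving out the dimmest 33.3% of probe sets, a second quantile normalisation, median centring, robust variances with a trend, weights per array, a single probe set for each gene, the probe set of largest variance (lists only), 18S as covariate and each array left out. The mean over a gene's probe sets was added after the data were seen. No batch is named in the labels, and any batch that ran with time cannot be told apart from it.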

Additional observations from a re-analysis of the deposited data

Results flagged for a closer look

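Results listed here are those in which the time change with TiO2-NB at 100 µg/ml differed from that of another group by the test of the difference itself. Against the control 1298 probe sets differed. The genes named for it are FAM13A (1.42), PCK1 (1.17), PPARG (1.08), CCL20 (1.03), KANK1 (1.02), GRAMD2B (0.88), KHDC4 (0.86) and RARB (0.86), which changed more in the upward direction, and KLF13 (-1.69), NAA15 (-1.61), WASL (-1.57), ZNF12 (-1.47), PLEKHA1 (-1.45), PHACTR2 (-1.42), IL6R (-1.38) and MTDH (-1.36), which changed more in the downward direction. The call held for all 16 in every alternative.

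Against TiO2-NB at 10 µg/ml 59 probe sets differed, among them CCL20 (0.74), GAL (0.43), IL6R (-1.50), ZNF12 (-1.18), PLEKHA1 (-1.13), ZNF264 (-1.09) and PHACTR2 (-0.96). Each of the 7 lost its call in 1 or more alternatives. Against MWCNT at 100 µg/ml 95 probe sets differed, among them CCL20 (0.75), CLK1 (0.58), SPRY2 (0.56), ZNF41 (0.49), GAL (0.48), IL6R (-1.44), PLEKHA1 (-1.21), PLPP3 (-1.16), PHACTR2 (-1.14) and MTDH (-1.04). CCL20 kept its call in all alternatives there and the other 9 lost it in 1 or more.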

How the results depend on the processing

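Each limit here is a count of called probe sets unless genes are named. With the compared groups alone, the control's change called 2525, and the differences from control, TiO2-NB at 10 µg/ml and MWCNT called 748, 1 and 1. For the last 2 the counts were 103 and 169 with the dimmest probe sets left out, 153 and 243 with array weights, and 90 and 172 with 18S as covariate; median centring gave 30 for the difference from 10 µg/ml. With 1 probe set per gene, 3733 genes changed with nanobelts, and 7 and 45 differed from the 10 µg/ml and MWCNT groups. With the mean over a gene's probe sets, chosen after seeing the data, the counts of genes were 3595, 2550 (control), 832, 35 and 42, and EGFR (-0.064), HEPH (-0.0034), ACACA (-0.14), ACTN1 (-0.026) and BNIP3L (-0.081) turned from a rise to a value below 0. ACACA then passed limma's test as a fall (adjusted p = 0.00206), while EGFR, HEPH, ACTN1 and BNIP3L did not pass. TOP2A (-0.27) and the difference for SRSF6 (-0.15) also turned. The cause was not tested. Some of these settings also used fewer arrays or features.

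With 1 array left out, the nanobelt change had 4975 to 5663 calls, the control 2998 to 3490, and the differences 848 to 1472, 0 to 368 and 9 to 352. List counts ranged from 12 to 16 (hypoxia), 25 to 34 (mitotic), 11 to 13 (immediate early), 10 to 11 (heat shock), 5 to 6 (ERK feedback), 14 to 15 (ribosome biogenesis), 6 to 6 (metallothioneins), 8 to 8 (clock) and 8 to 11 (p53). Of the values of single genes in the nanobelt change, 1752 kept direction and side of the threshold under other settings, 44 lost the call, 30 gained it and 5 turned.

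The samples were not treated as paired by replicate number. Deviations of same-numbered arrays with nanobelts correlated at -0.22, 0.14 and -0.057. With 3 arrays per group these values are tied to each other and cannot exclude a pairing. With the replicate number as a block 5979 probe sets changed with nanobelts and 3964 in the control, and the differences had 1294, 98 and 108 calls. Without the block the differences had 1298, 59 and 95. 3 arrays per group limit the precision.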
